A study of Mus musculus with 5 samples.

Results

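The amino acid and endoplasmic reticulum (ER) stress response was described in mouse liver through 7 of the 12393 genes named on the array, Atf4, Ddit3, Trib3, Atf3, Asns, Xbp1 and Herpud1. They were taken as every probe set with 1 of these symbols as its single annotated gene, which gave 15 of the 20380 probe sets with a single symbol. Liver RNA was hybridised to 5 oligonucleotide arrays, 1 per group, and each array holds a pool of livers. All groups were C57B/L mice that were 8 weeks old, were kept for 2 weeks and were then fed as their group required. The groups were an atherogenic diet for 10 weeks with atorvastatin, a statin, in the final 3 weeks; the atherogenic diet alone for 10 weeks; standard chow for 10 weeks; the atherogenic diet for 1 week; and standard chow for 1 week. Standard chow is thus the feed of both control groups, which differ in time and in age. The labels do not state how many livers made a pool, the sex of the mice, the atorvastatin dose or what the diet contained. The sample of the diet at 1 week carries a chow source name, but its title, description and protocols name the atherogenic diet, and it was grouped by its title. With 1 array per group there is no replicate, no test was made, and the number of arrays limits the precision of every value.

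Cells answer a shortage of amino acids, or unfolded protein in the ER, by phosphorylating the translation factor eIF2. This slows protein synthesis in general but raises translation of the mRNA of ATF4, a basic leucine zipper (bZIP) transcription factor that switches on amino acid synthesis and uptake genes and further stress regulators. In a parallel arm the ER sensor IRE1 splices the mRNA of XBP1, another bZIP factor, which then switches on genes of protein folding, secretion and ER-associated degradation. The liver secretes most plasma proteins and has a large ER, and XBP1 is also known to sustain lipid synthesis in mouse hepatocytes. These arrays measure total mRNA, so neither the translation of Atf4 nor the splicing of Xbp1 is read directly.

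The signals are MAS5 signals on a linear scale. A signal below 138.9, the 40th percentile of all signals, was set to that floor before ratios were taken, and a gene or probe set was taken as measured where either array of the comparison exceeded it. Of several probe sets, the brightest by mean log2 signal stands for the gene and is called its representative. Of the 15 probe sets, 11 lay above the floor on 5 of 5 arrays, 2 on 4 arrays, and 2, 1 for Atf4 and 1 for Asns, on 0 arrays. Ratios are given as log2, with 2-fold as the size that counts. The pair of chow arrays gives a measure of spread: 95% of probe sets differed between them by less than 1.79-fold to 2.29-fold, depending on how bright they were, and this pair also differs in age. Hepatocyte markers were present, with 6 of 6 named markers above the floor on all arrays and summed signals of 196314 with atorvastatin, 209466 on the diet at 10 weeks, 286142 on chow at 10 weeks, 146919 on the diet at 1 week and 171637 on chow at 1 week. Spearman correlations between arrays, over 22626 probe sets, were 0.911 to 0.946. The 18S ribosomal RNA controls stood at 13944 (geometric mean) with atorvastatin and at 437 to 2185 elsewhere. The 3′ to 5′ ratio of the actin controls was 1.17 on the diet and 1.73 on chow at 10 weeks, 1.61 on the diet and 1.2 on chow at 1 week, and 1.32 with atorvastatin. The share of probe sets above the floor was 57.2% on the diet at 1 week and 60.1% to 61.3% on the other arrays. The part of these differences in any result, the 1-week Trib3 ratio included, was not tested.

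One member stood out by size, and in 1 comparison only: Trib3 was 2.80-fold higher on the diet than on chow at 1 week. The other 6 genes were not past 2-fold by their representative probe sets in any of the 4 comparisons of diet or drug, with Atf3 at 1 week known only as a bound. At 1 week 1 of 7 genes was past 2-fold, against 2.30% of 8798 genes measured (1.06% higher and 1.24% lower). For the diet against chow at 10 weeks the count was 0 of 7, against 6.65% of all genes (3.59% higher and 3.07% lower). For atorvastatin on the diet against the diet alone it was 0 of 7, against 4.27% (2.15% higher and 2.12% lower). For atorvastatin on the diet against chow it was 0 of 7, against 5.51% (3.05% higher and 2.46% lower). Between the chow arrays it was also 0 of 7, against 4.39% (2.44% higher and 1.95% lower). With 7 members, a background of this size leaves less than 1 gene to be past 2-fold in each comparison, so these counts are close to those of genes in general. The median log2 ratio of the 7 genes was -0.16 on the diet at 10 weeks (0.05 over all genes), -0.09 at 1 week (-0.03), 0.23 for atorvastatin against the diet (-0.03), 0.13 for atorvastatin against chow (0.03) and 0.11 for the chow pair (0.01).

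**Figure D1:**
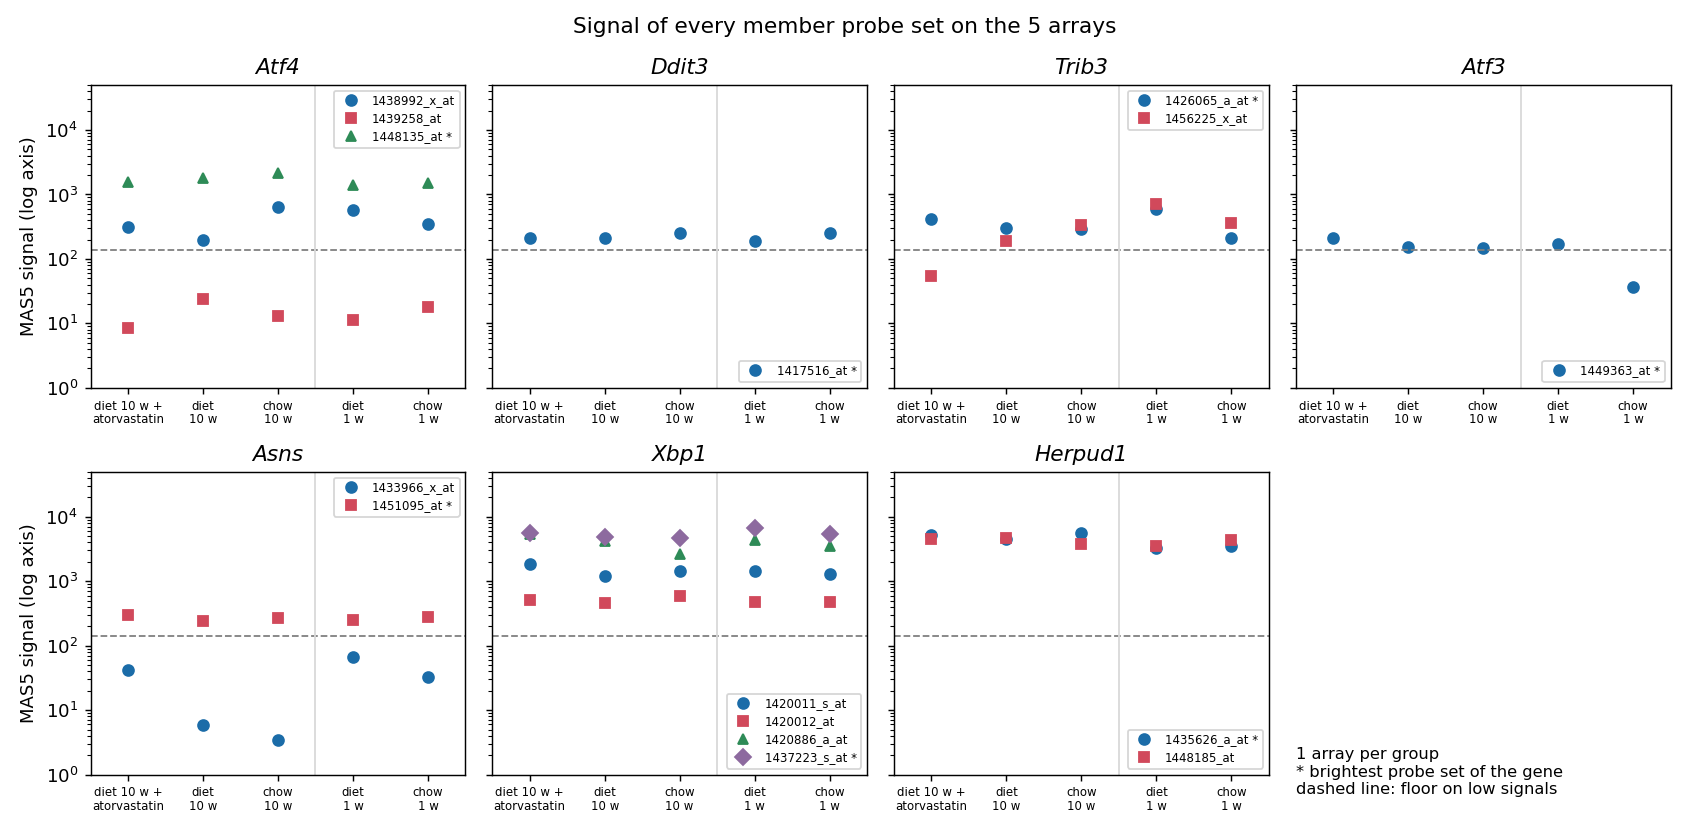
MAS5 signal on a log axis for each of the 15 member probe sets on the 5 arrays, 1 panel per gene and 1 point per array. The 2 Trib3 probe sets are both highest on the diet at 1 week, at 599 and 718, while 1 Atf4 and 1 Asns probe set lie below the floor of 138.9 on every array.

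Atf4 itself showed no difference past 2-fold by its representative probe set. Probe set 1448135_at had a signal of 1589 with atorvastatin, 1828 on the diet and 2163 on chow at 10 weeks, and of 1389 on the diet and 1484 on chow at 1 week. The order of the groups was chow at 10 weeks, diet at 10 weeks, atorvastatin, chow at 1 week and diet at 1 week from high to low, a span of 1.56-fold. The diet log2 ratio was -0.24 at 10 weeks and -0.09 at 1 week, and the ratio of the chow arrays was 0.54, so the chow arrays differed from each other by more than diet and chow did at either time. The summed hepatocyte markers were also highest on chow at 10 weeks, and their part in the Atf4 and Herpud1 values was not tested.

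A second Atf4 probe set gave a different picture. Its suffix marks a probe set (1438992_x_at) whose probes can also match other sequences. It read 309 with atorvastatin, 194 on the diet and 633 on chow at 10 weeks, then 575 on the diet and 351 on chow at 1 week. The diet was thus 3.26-fold lower at 10 weeks (log2 -1.70) and 1.64-fold higher at 1 week (0.71). The atorvastatin array was 2.05-fold lower than chow. Both lower values exceed the 1.94-fold chow spread at this signal level. The log2 ratio of this probe set between the chow arrays was 0.85, and the other measured Atf4 probe set did not share its diet ratio at 10 weeks. The remaining probe set, 1439258_at, read 8.5 to 24.1 and gave no ratio.

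Among the bZIP factors downstream, Ddit3 encodes CHOP, a factor linked to cell death in prolonged ER stress. It lay close to the floor, with a signal of 211 with atorvastatin, 214 on the diet and 252 on chow at 10 weeks, and of 190 on the diet and 251 on chow at 1 week. Both chow arrays were above all 3 diet arrays, but the whole span was 1.33-fold. The diet log2 ratio was -0.23 at 10 weeks and -0.41 at 1 week, inside the 2.29-fold spread of the chow arrays at this signal level. Whether Ddit3 would have been lower with replicates cannot be said from 1 array per group.

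Atf3, a stress-induced bZIP factor that often represses its targets, was also dim. It read 215 with atorvastatin, 155 on the diet and 149 on chow at 10 weeks, and 170 on the diet and 37.0 on chow at 1 week. Only the 1-week chow array was under the floor, so the diet at 1 week was at least 1.22-fold higher, and the 10-week chow array at least 1.08-fold higher than the 1-week chow array. The atorvastatin array was the highest, with a log2 ratio of 0.48 to the diet and 0.53 to chow. With a floor at the 20th percentile the diet ratio at 1 week was 1.81 and that of the chow arrays 1.62, both past 2-fold.

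Trib3 encodes a pseudokinase that is switched on by ATF4 and CHOP and is known to bind and restrain the kinase AKT in liver. Probe set 1426065_a_at had a signal of 410 with atorvastatin, 302 on the diet and 288 on chow at 10 weeks, and of 599 on the diet and 214 on chow at 1 week. The diet at 1 week was the highest of the 5 and chow at 1 week the lowest. Its log2 ratio at 1 week was 1.49, beyond the 2.29-fold spread of the chow arrays at this signal level, and 16 of 8798 genes had a higher ratio. This excess over the spread depends on the low 1-week chow signal. Set against 10-week chow, at 288, the 599 would lie inside the same spread, but that ratio was not taken. With the chow arrays averaged for the reference, the log2 ratio was 1.27, beyond the spread. At 10 weeks the diet ratio was 0.07, and the difference between the diet ratios (10 weeks minus 1 week) was -1.42.

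The second Trib3 probe set, 1456225_x_at, was also highest on the diet at 1 week. It read 53.6 with atorvastatin, which is under the floor, 187 on the diet and 336 on chow at 10 weeks, and 718 on the diet and 359 on chow at 1 week. The 1-week ratio fell just short of 2-fold and lay inside the 2.29-fold chow spread. At 10 weeks the probe sets parted: this one was 1.80-fold lower on the diet (-0.85) and at least 2.42-fold lower with atorvastatin than on chow, where the first gave 1.42-fold higher with atorvastatin. Against the diet alone it was at least 1.34-fold lower with atorvastatin, where the first was 1.36-fold higher. Both Trib3 probe sets thus read highest on the diet at 1 week, and they differed in direction at 10 weeks. Against 1-week chow, the first alone was beyond the chow spread.

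Asns encodes asparagine synthetase, which makes asparagine from aspartate and glutamine, and is a direct target of ATF4. Probe set 1451095_at read 298 with atorvastatin, 244 on the diet and 272 on chow at 10 weeks, and 248 on the diet and 278 on chow at 1 week. All 5 arrays lay within 1.22-fold, the narrowest span of the 13 measured probe sets. The diet log2 ratio was -0.16 at 10 weeks and -0.16 at 1 week. Asns therefore did not share the Trib3 difference at 1 week. The other Asns probe set, 1433966_x_at, read 3.5 to 66.9, all under the floor.

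In the XBP1 arm, Xbp1 was read by 4 probe sets. The representative, 1437223_s_at, had a signal of 5624 with atorvastatin, 4795 on the diet and 4639 on chow at 10 weeks, and of 6668 on the diet and 5465 on chow at 1 week. Probe set 1420886_a_at read 5448 with atorvastatin, 4243 on the diet and 2617 on chow at 10 weeks, and 4432 on the diet and 3540 on chow at 1 week. In both, diet arrays lay above the chow array of the same time. The diet log2 ratio of 1437223_s_at was 0.05 at 10 weeks and 0.29 at 1 week, and that of 1420886_a_at was 0.70 and 0.32.

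The other Xbp1 probe sets did not repeat that order at 10 weeks. Probe set 1420011_s_at read 1873 with atorvastatin, 1222 on the diet and 1421 on chow at 10 weeks, and 1452 on the diet and 1308 on chow at 1 week. Probe set 1420012_at read 509 with atorvastatin, 457 on the diet and 600 on chow at 10 weeks, and 468 on the diet and 483 on chow at 1 week. Their diet ratios at 10 weeks were -0.22 and -0.39. For atorvastatin against the diet 4 of 4 Xbp1 probe sets had a positive log2 ratio, of 0.16 to 0.61, all inside the chow spread. A positive ratio was found for 47.5% of all probe sets in this comparison. The Xbp1 probe sets read the same RNA on the same arrays, so they are not replicates.

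The Xbp1 ratio of atorvastatin to chow depended on the probe set. It was 2.08-fold higher for 1420886_a_at, beyond the 1.85-fold chow spread at this signal level, and 1.21-fold for the representative probe set, with log2 values of 0.40 and -0.24 for the others. For 1420886_a_at the 10-week chow array was the lowest of the 5, at 2617, and 1-week chow read 3540. A ratio to 1-week chow would thus be smaller and was not taken. Xbp1 is expressed strongly in secretory cells such as plasma cells as well as hepatocytes. Named plasma and B cell markers summed to 1669 with atorvastatin, 1676 on the diet and 1213 on chow at 10 weeks, and to 971 on the diet and 1049 on chow at 1 week, with 3 or 4 of 5 above the floor on each array. The sums hide markers that differ: at 10 weeks, in that order, Ighm read 715, 895 and 622 and Jchain 397, 228 and 201. Cd79a was lower with atorvastatin than on the diet, and Cd79b higher. Macrophage and Kupffer cell markers, 8 of 8 above the floor, summed to 20123, 14517 and 8282 at 10 weeks in that order, and to 11211 on the diet and 12538 on chow at 1 week. These markers differed too: at 10 weeks, in the same order, Adgre1 read 707, 1085 and 515 and Cd5l 6110, 3344 and 1415. All but Adgre1 read higher with atorvastatin than on the diet. The part of these cells in the Xbp1 values was not tested, and in pooled whole liver more cells of a type cannot be told apart from more RNA per cell.

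Herpud1 encodes an ER membrane protein that assembles the machinery of ER-associated degradation, and it is induced by both the ATF4 and the ATF6 and XBP1 arms. Probe set 1435626_a_at read 5220 with atorvastatin, 4574 on the diet and 5612 on chow at 10 weeks, and 3334 on the diet and 3547 on chow at 1 week. Probe set 1448185_at read 4598 with atorvastatin, 4688 on the diet and 3760 on chow at 10 weeks, and 3531 on the diet and 4296 on chow at 1 week. The probe sets gave opposite signs for the diet at 10 weeks, -0.29 and 0.32, and for the chow pair, 0.66 and -0.19. Both read lowest on the diet at 1 week, and 0 of 2 passed 2-fold in any comparison.

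**Figure D2:**
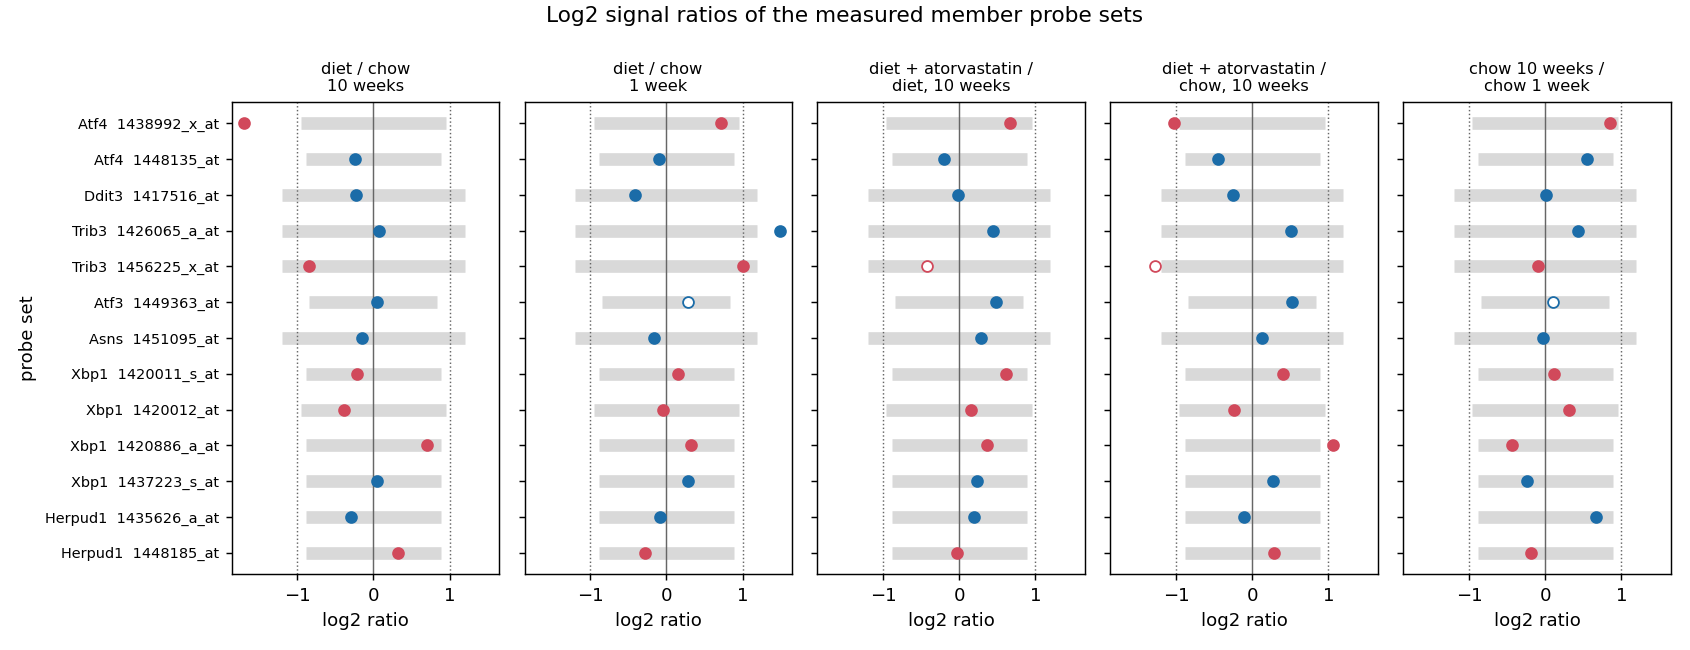
Log2 ratio of each of the 13 measured member probe sets in 5 comparisons. Blue points are representative probe sets, red points the others, open points bounds where 1 array is under the floor, grey bars the range that holds 95% of probe sets of like signal between the chow arrays, and dotted lines 2-fold. Trib3 at 1 week (1.49) is the 1 blue point past 2-fold; the red points past it are Atf4 1438992_x_at at 10 weeks (-1.70), and this probe set, Trib3 1456225_x_at and Xbp1 1420886_a_at for atorvastatin against chow.

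By probe set, 1 of 13 was lower past 2-fold on the diet at 10 weeks and 0 higher, against 7.07% of probe sets in either direction (3.63% higher and 3.44% lower). At 1 week 1 of 13 was higher, against 2.94% (1.34% higher and 1.61% lower). Atorvastatin on the diet against the diet had 0 of 13, against 4.49% (2.21% higher and 2.28% lower). Against chow it had 1 higher and 2 lower, against 5.90% (3.05% higher and 2.85% lower). The chow pair had 0 of 13, against 4.63% (2.44% higher and 2.19% lower). Within each probe set the 5 arrays were placed in order of signal. With signals under the floor set to it, of the 52 pairs of neighbours in these orders 0 differed by more than the chow spread at their signal level. Pairs that end on a floored signal, in Atf3 and Trib3 1456225_x_at, give lower bounds only. Ordering also splits each span into smaller steps, so this 0 does not show that the arrays were alike. For 9 of the 13 probe sets the whole floored span over the 5 arrays was already inside that spread, so their neighbours could not exceed it. Atf3 is among them, but its span of 0.63 is only a lower bound, because 1-week chow read 37.0, under the floor. The span was beyond it for the other 4, at log2 values of 1.49 for Trib3 1426065_a_at, at least 2.37 for Trib3 1456225_x_at, 1.70 for Atf4 1438992_x_at and 1.06 for Xbp1 1420886_a_at. A span is the largest difference among 5 arrays, so it passes a limit taken from 1 pair more easily than a single ratio does. The share of all probe sets with such a span was not computed, so these 4 of 13 cannot be called unusual. The diet at 10 weeks and atorvastatin against chow share the 10-week chow array, and the chow pair uses it as well. The diet at 10 weeks and atorvastatin against the diet share the 10-week diet array, so these comparisons are not independent.

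The promoters are shown for Trib3, the member past 2-fold at 1 week, and for Asns and Herpud1, which are targets of the same arms without that difference. Each is the RefSeq promoter window of GRCm38.p6, 300 bases with 250 before the annotated start and 50 after it, written 5′ to 3′ in the direction of the gene. All 7 members matched an entry by symbol. Capitals mark matches on either strand to the motifs searched: TGATGNAAN, the core of the amino acid response element bound by ATF4 with a C/EBP partner; TGACGTGG, the core of the unfolded protein response element; TGACGTCA, the cyclic AMP response element; CCACG; the ER stress response element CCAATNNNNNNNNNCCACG; and the ER stress response element II ATTGGNCCACG, added after the promoters had been read. The last 2 contain CCACG, so their matches overlap its matches.
Trib3, chr2:152344011-152344310, minus strand: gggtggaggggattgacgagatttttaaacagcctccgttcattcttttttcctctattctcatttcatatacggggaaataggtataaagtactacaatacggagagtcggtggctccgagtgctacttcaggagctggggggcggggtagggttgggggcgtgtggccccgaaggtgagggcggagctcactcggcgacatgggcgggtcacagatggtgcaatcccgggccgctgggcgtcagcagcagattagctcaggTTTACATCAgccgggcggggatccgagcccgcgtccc
Asns, chr6:7693160-7693459, minus strand: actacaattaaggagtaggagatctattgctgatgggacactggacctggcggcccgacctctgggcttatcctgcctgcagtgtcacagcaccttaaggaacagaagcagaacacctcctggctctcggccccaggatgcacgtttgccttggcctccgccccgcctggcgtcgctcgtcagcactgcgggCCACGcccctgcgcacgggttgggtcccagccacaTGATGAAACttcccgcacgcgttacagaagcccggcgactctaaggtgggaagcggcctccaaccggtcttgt
Herpud1, chr8:94386179-94386478, plus strand: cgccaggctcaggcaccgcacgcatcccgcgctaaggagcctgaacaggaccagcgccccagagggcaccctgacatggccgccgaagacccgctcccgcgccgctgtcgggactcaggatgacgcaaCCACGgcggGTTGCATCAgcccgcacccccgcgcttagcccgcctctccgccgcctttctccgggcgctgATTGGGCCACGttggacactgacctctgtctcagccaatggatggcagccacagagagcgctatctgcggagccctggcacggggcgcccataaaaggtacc

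The amino acid response element core lay in 4 of the 7 member promoters, those of Asns, Atf3, Herpud1 and Trib3, and in 3.95% of 32851 mouse promoter windows of this length. In Asns it read TGATGAAAC, starting 23 bases before the start. In Trib3 it lay on the opposite strand, starting 13 bases after the start. Asns and Trib3 both match this core and had different ratios at 1 week, with log2 values of -0.16 for Asns and 1.49 for Trib3. Herpud1 held an ER stress response element II, ATTGGGCCACG, which 0.0365% of windows hold, and CCACG at a second place. CCACG was also found in Atf4 and Asns and in 32.8% of windows. Neither TGACGTGG (0.676% of windows), TGACGTCA (1.79%) nor the first ER stress response element (0.119%) matched a member window, and Ddit3 and Xbp1 held no match to any of the 6 motifs. These are matches of letters, not binding sites.

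The other genes of both arms were placed in 7 lists, with 112 of 122 listed genes named on the array. On the diet at 1 week, where Trib3 was higher, 0 of the 107 measured genes were past 2-fold higher and 1 lower, 0.935% against 2.30% of all genes, with a median log2 ratio of -0.02 (-0.03 over all genes). The 1 was Ddit4, a stress-induced inhibitor of the kinase mTORC1, at 309 on the diet and 618 on chow (2.0-fold lower). It read 227 with atorvastatin, 269 on the diet and 220 on chow at 10 weeks, so the 1-week chow array was the high one. A positive ratio was found for 46.1% of all genes. Of the 13 measured ATF4-driven stress regulators 4 had a positive ratio, and of the 16 measured amino acid synthesis and uptake genes 8 did. The list of ER-associated degradation had 10 of 14 positive ratios and a median of 0.22, with 0 past 2-fold. Trib3 thus stood past 2-fold at 1 week with no other gene of these lists higher by that size.

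At 10 weeks of diet 1 of 104 measured genes of the 7 lists was higher past 2-fold and 4 were lower, 4.81% against 6.65% of all genes. The lower ones were Fgf21, a hepatic starvation hormone (75.2 on the diet, under the floor, and 593 on chow, at least 4.27-fold lower), Cth, which makes cysteine (4580 and 10636, log2 -1.22), the valyl-tRNA synthetase gene Vars (60.2, under the floor, and 343, at least 2.47-fold lower) and Ppp1r15b, a subunit of the eIF2 phosphatase (993 and 2318, -1.22). Stbd1, a glycogen-binding protein, was higher (1580 and 772, 1.03). On the 1-week chow array Fgf21 read 553, Cth 11486, Vars 485 and Ppp1r15b 1066. Cth, Fgf21 and Vars thus read lower on the diet at 10 weeks than on both chow arrays by more than 2-fold, while Ppp1r15b was close to the 1-week chow array. Of 14 aminoacyl-tRNA synthetases, which load amino acids on tRNA and include many ATF4 targets, 3 had a positive ratio, where 54.3% of all genes did, with a median of -0.33. The lists of sensors and translation factors (0.05), ER chaperones (0.09), ER-associated degradation (-0.13), secretory pathway genes (0.17), amino acid genes (0.02) and stress regulators (0.09) had medians close to 0.

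With atorvastatin on the diet, ER chaperones read lower than on the diet alone without passing 2-fold: 3 of 17 had a positive ratio and the median log2 ratio was -0.45 (-0.03 over all genes). The range was -0.94 to 0.31, and the share of all genes with a positive ratio was 47.5%. Pdia6, a disulfide isomerase, read 1066 with atorvastatin, 2041 on the diet and 1593 on chow at 10 weeks, and 1149 on the diet and 1192 on chow at 1 week. Calr, the calcium-binding lectin chaperone calreticulin, read 6150 with atorvastatin, 10748 on the diet and 5613 on chow at 10 weeks, and 7485 on the diet and 6822 on chow at 1 week. For both, the 10-week diet array was the highest of the 5 by the representative probe set, and Calr with atorvastatin was close to chow. The Calr probe set carries the x suffix, so its probes can also match other sequences. Any other probe sets of Pdia6 and Calr were not compared, so the order of the arrays rests on the representative alone. Hspa5, which encodes the chief ER chaperone BiP, read 6505 with atorvastatin and 7310 on the diet (log2 -0.17). These 3 chaperones were chosen after their values were seen. Xbp1, which drives part of this list, had the positive ratios given above in the same comparison. Of all 103 measured genes of the 7 lists 1 was past 2-fold, Derl3, an ER-associated degradation factor, at least 2.71-fold higher (377 with atorvastatin and 74.0 on the diet, under the floor). It read 277 on chow at 10 weeks, 200 on the diet at 1 week and 57.5 on chow at 1 week.

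Against chow at 10 weeks the atorvastatin array had 1 of 104 genes higher and 7 lower, 7.69% against 5.51% of all genes. A positive ratio was found for 52.2% of all genes. The ER chaperones had 4 of 17 positive ratios and a median of -0.30, and Hyou1 (1082 with atorvastatin and 2394 on chow, log2 -1.14) and Pdia4 (995 and 2002, -1.01) were past 2-fold, where their other probe sets gave -0.29 and 0.54. Of the 14 aminoacyl-tRNA synthetases 0 had a positive ratio and the median was -0.33, with Vars at least 2.47-fold lower. Ssr1, a subunit of the translocon-associated complex, was lower (981 and 2776, 2.83-fold, with log2 ratios of -0.44 and -0.43 from other probe sets), as were Slc38a2, an amino acid transporter (1226 and 2497, -1.03), Fgf21 (175 and 593, -1.76) and Ppp1r15b (988 and 2318, -1.23, other probe set 0.32). Derl2, of ER-associated degradation, was higher (2327 and 908, 1.36, other probe set 0.37). The 10-week chow array itself read higher than the 1-week chow array for 10 of 17 chaperones (median 0.28) and 9 of 14 synthetases (median 0.23), where 51.1% of all genes did, and it is the chow array of this comparison.

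**Figure D3:**
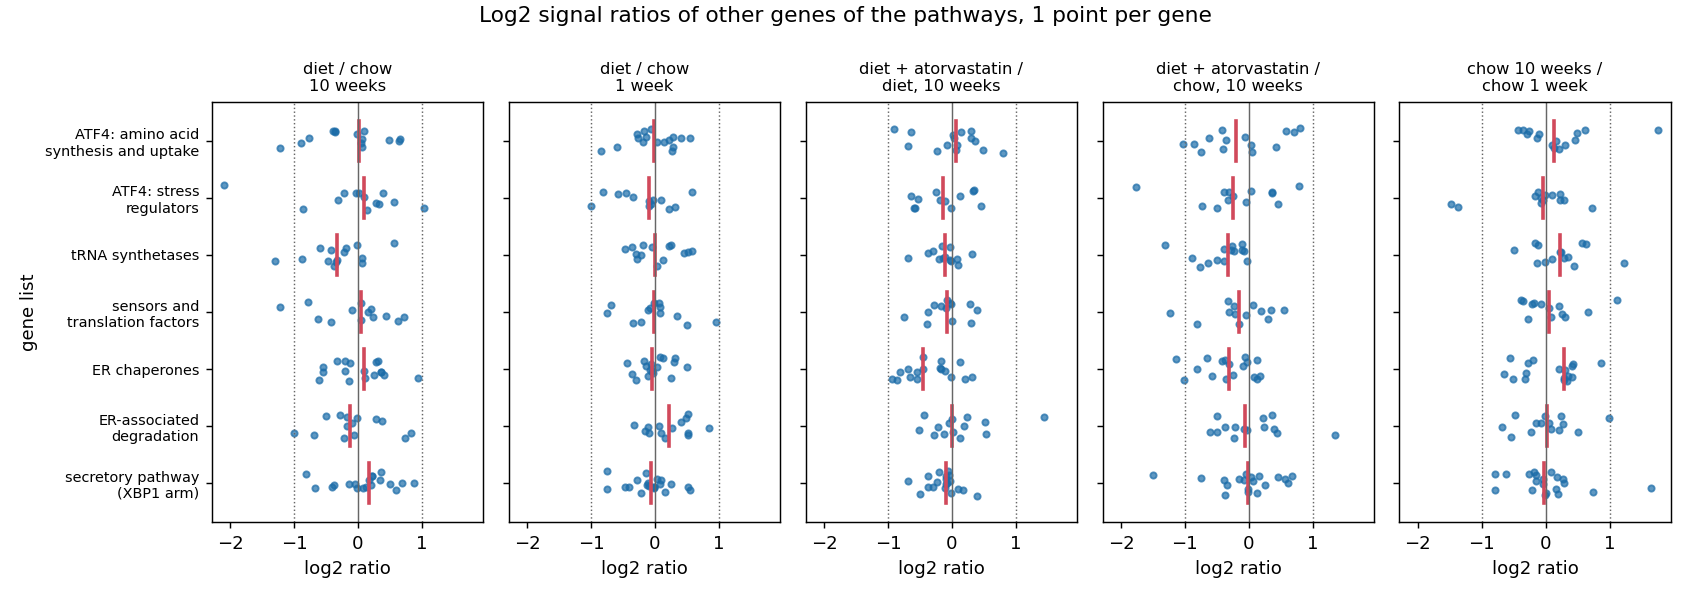
Log2 ratio of each measured gene of 7 pathway lists in 5 comparisons, 1 point per gene, with the list median as a red bar and 2-fold as dotted lines. In the panel of atorvastatin against the diet the ER chaperones have the lowest median (-0.45), and the chow pair on the right also holds genes past 2-fold in both directions.

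The chow pair shows how far these lists move without a change of feed. Of 106 measured genes 4 were past 2-fold higher at 10 weeks and 2 lower, 5.66% against 4.39% of all genes. Kdelr2, a retrieval receptor of the ER (6317 at 10 weeks and 2015 at 1 week, log2 1.65, other probe set 0.30), Phgdh, the first enzyme of serine synthesis (841 and 248, 1.76, others -0.26 and 0.52), the seryl-tRNA synthetase gene Sars (1269 and 544, 1.22, other 0.71) and Ppp1r15b (1.12, other -0.14) were higher. Atf5, a bZIP factor related to ATF4, was lower at 10 weeks (2295 and 5907, -1.36), as was Ddit4 (220 and 618, -1.49). Atf5 read 3946 with atorvastatin and 2882 on the diet at 10 weeks, and 6846 on the diet at 1 week, so it was high on both 1-week arrays. The member Herpud1 had a log2 ratio of 0.66 in this pair and Atf4 0.54, both under 2-fold.

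Trib3 was the 1 member whose representative probe set spanned 2-fold over the 5 arrays with all of them above the floor. The genes most like it were found by the root mean square difference of log2 signals centred on each gene's 5-array mean, over 5 arrays and 6928 other genes. The nearest was Atg4d, a protease of autophagy, at a difference of 0.17, where the median gene was at 0.58. It read 560 with atorvastatin, 456 on the diet and 408 on chow at 10 weeks, and 647 on the diet and 306 on chow at 1 week. Naglu, a lysosomal hydrolase, followed at 0.18, with signals of 419, 362 and 307 at 10 weeks in that order, and of 533 on the diet and 181 on chow at 1 week. The clone-named gene 2810459M11Rik was at 0.19, with 773, 737 and 625 at 10 weeks, and 1020 on the diet and 495 on chow at 1 week. All of these were highest on the diet at 1 week and lowest on chow at 1 week, which is the order of Trib3. They were chosen for their likeness to Trib3, so the shared order follows from the choice and adds no support.

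**Figure D4:**
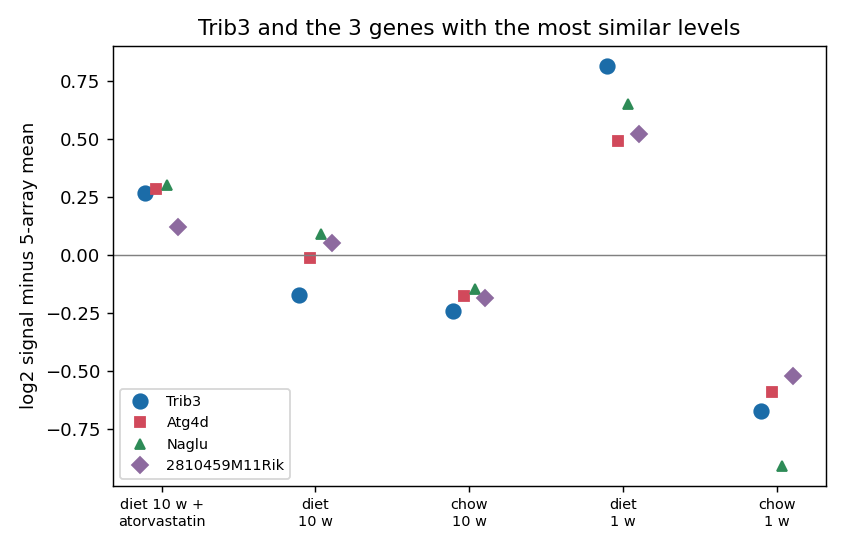
Log2 signal minus its 5-array mean for Trib3 and the 3 genes with the smallest root mean square difference from it (0.17 to 0.19), 1 point per array. All 4 genes lie highest on the diet at 1 week and lowest on chow at 1 week, which follows from choosing the 3 by their likeness to Trib3.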

How the data were processed

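The authors deposited 1 value per probe set and array, a linear intensity made with MAS5, which the submitters' processing notes name without a version. Each array has a 2% trimmed mean of 500.2, as tested on the deposited table, and was rescaled to a common one, which changed little. Of 22690 probe sets, 64 controls were left out; 20380 of the rest have 1 gene symbol in the platform annotation, 691 several and 1555 none listed. These name 12393 genes. Of the listed pathway and marker genes 2 were matched by an older symbol, using the gene table of GRCm38.p6 for names only.

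Signals were floored at the 40th percentile (138.9) and taken to log2. No p-value was made. The members, lists and comparisons were chosen with earlier results of these data known. Described genes are all member probe sets, up to 4 genes of each list past 2-fold, and the 3 genes most like a member; exceptions are named. Alternatives were no rescaling, quantile normalization, a lower floor (20th percentile), a higher one (60th), a pseudocount, other probe set rules, 1.5-fold and 3-fold, and other reference arrays. Ratios were tested on simulated data, with known differences placed only in probe sets whose 1-week chow signal exceeded 2 times the floor. Ratios nearer the floor, such as that of Trib3 at 1 week, were not covered. Python 3.11.15, numpy 2.4.6 and pandas 2.3.3 were used.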

Additional observations from a re-analysis of the deposited data

Results flagged for a closer look

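The diet ratios of 2 probe sets had opposite signs at 10 weeks and 1 week and lay more than 2-fold apart (opposite signs under that size are not listed). The difference was not tested. For Atf4 probe set 1438992_x_at it was -2.42 on the log2 scale (10 weeks minus 1 week), where probe set 1448135_at gave -0.15. For Trib3 probe set 1456225_x_at it was -1.85, where 1426065_a_at gave -1.42, there with both diet ratios positive.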

How the results depend on the processing

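The count of member genes past 2-fold on the diet at 10 weeks, and with atorvastatin against the diet, was 0 under every alternative run. At 1.5-fold that 0 of 7 stands against 24.7% of all genes on the diet and 19.2% with atorvastatin, and at 3-fold against 0.975% and 0.635%. At 1 week it was 1 except with the floor at the 20th percentile, where Atf3 joined Trib3 and it was 2, and with 3-fold as the size that counts, where it was 0. The 1 of 7 at 1.5-fold stands against 14.0% of all genes, close to that share, and the 0 of 7 at 3-fold against 0.182%. Trib3 at 1 week lay between 1.06 and 1.49 under its 8 alternatives, past 2-fold in 8 of 8. Of these, no rescaling, the 20th-percentile floor and leaving out x and s probe sets left it at 1.49. They could hardly move it: array means were already equal, both signals exceed that floor, and the probe set has neither suffix. The values with the pseudocount (1.06) and the 60th-percentile floor (1.09) lay inside the log2 chow spread of 1.20 used for this probe set. That spread was not computed anew for the alternatives. No alternative used Trib3 probe set 1456225_x_at alone, which gave 1.0, just short of 2-fold. None set the 1-week diet against 10-week chow alone. For atorvastatin against chow the count was 1 without the x and s probe sets, where Xbp1 had 1.06. Between the chow arrays it was 1 with the floor at the 20th percentile (Atf3) and 1 at 1.5-fold (Herpud1), where 19.6% of all genes passed. Of 253 single-gene values under alternatives 244 moved by less than 1 SD of the log2 ratios between the chow arrays at that signal level and 9 by more, and none past 2-fold changed sign. Of the 9, those of Atf3 came with the 20th-percentile floor or the pseudocount, and those of Xbp1 without x and s probe sets. The rest were Atf4 and Herpud1 with 1-week chow as the reference, and Trib3 with all probe sets averaged. With 1-week chow as the reference, the 10-week diet ratio was 0.30 for Atf4 and 0.37 for Herpud1. Averaging all probe sets turned Trib3 with atorvastatin against chow to -0.38. The share of all genes past 2-fold ranged, over the scalings, floors, pseudocount and probe set rules, from 4.04% to 14.5% on the diet at 10 weeks, 0.989% to 7.5% at 1 week, 1.75% to 11.7% for atorvastatin against the diet, 3.01% to 13.2% against chow and 2.26% to 11.6% for the chow pair, highest with the 20th-percentile floor each time. No paired analysis was possible because each group has 1 array. Signals near the floor limit what ratios can show, as for Ddit3, Atf3, Asns and also Trib3, whose 1-week chow signal was 214.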
